A study of Mus musculus with 12 samples.

Results

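Trp53, Mdm2, Mdm4 and Ppm1d, the gene for the tumour suppressor p53 and 3 genes whose products hold it in check, were followed through RNAseq of RAW264.7 cells in which the splicing factor SF3a1 was knocked down. The 4 genes were chosen by name from the 38215 genes counted, and their 75 exon bins were taken from the 354841 bins counted for exon usage. RAW264.7 is an established macrophage line from BALB/c mice, so all libraries come from 1 line. Cells were transfected with SF3a1 siRNA or with a nontargeting control siRNA for 24 hours and then received either no LPS or 20 ng/ml LPS for 4 hours. LPS, or lipopolysaccharide, comes from the outer membrane of Gram-negative bacteria and is sensed by macrophages through TLR4. Each siRNA was thus combined with each LPS condition in 4 groups, with 3 libraries each and the replicate numbers the labels give. Exon bin counts were analysed in 11 libraries, without replicate 3 of control siRNA with LPS. The sources used here do not say that replicates came from separate passages, so the p-values measure the spread between these libraries, which may be partly technical.

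The p53 protein is a transcription factor that is made continuously and destroyed almost as fast. MDM2 is the ubiquitin ligase that marks it for destruction, MDM4 is a relative of MDM2 that binds p53, masks its activation domain and works with MDM2 as a heterodimer, and PPM1D (also called WIP1) is a phosphatase that removes activating phosphates from p53 and from the kinases that place them. Mdm2 and Ppm1d are themselves transcribed under p53, which closes a negative feedback loop, while Mdm4 is known for control through splicing of an internal exon. SF3a1 is a subunit of the SF3a complex of the U2 snRNP, the particle that recognises the branch site in front of the 3′ end of an intron.

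Reads counted on genes ranged from 12746019 to 41091887 per library, and replicate 1 was the deepest library of its group in each of the 4 groups. Levels are given as CPM, counts per library total after scaling with edgeR's TMM factors, as mean ± SD over 3 libraries unless another n is given. The threshold for a change in level was a Benjamini-Hochberg adjusted p of 0.1 in the quasi-likelihood test of edgeR, fitted and adjusted over 14983 genes left by a filter on low counts. All 4 genes passed that filter. With 3 libraries a group the lowest p of an exact two-sided permutation test is 0.1, and gene levels were therefore tested in the model fitted over all genes. Sf3a1 itself stood at 173, 216 and 185 CPM in the control libraries without LPS and at 27.1, 27.5 and 32.1 CPM after SF3a1 siRNA. With LPS it stood at 150, 194 and 157 CPM after control siRNA and at 30.3, 26.7 and 45.0 CPM after SF3a1 siRNA. The siRNA thus left 15.1% of the control level without LPS and 20.3% with LPS, and the groups did not overlap.

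The macrophage identity of the cells was checked on 10 marker genes, whose summed level ran from 9746 to 16364 CPM over the 12 libraries. Lyz2, for lysozyme, was the most abundant of them, with a mean of 6689 CPM. Of the 9 markers tested, 2 rose and 0 fell with SF3a1 siRNA without LPS, where 13.7% of all genes tested rose and 20.1% fell. With LPS 2 rose and 2 fell, where 18.4% and 20.4% of all genes did. LPS after control siRNA raised 6 and lowered 1, where 13.8% and 18.3% of all genes were higher and lower. Lyz2 (log2 0.47) and Spi1 (0.59), for a macrophage transcription factor, rose with SF3a1 siRNA without LPS. With LPS Spi1 (0.61) and Csf1r (0.69), a growth factor receptor gene, rose, while Adgre1, for F4/80, fell (-0.71) and Fcgr1, an Fc receptor gene, fell from 456 to 49.5 CPM (-3.20, edgeR adjusted p = 6.14e-06). Their part in the results below was not tested. Cd163 and Mrc1 were at or near 0, with group means of at most 0.0175 and 0.777 CPM. Markers of fibroblasts, epithelial cells and lymphocytes summed to at most 0.342, 0.211 and 0.363 CPM in any library, with Ncr1 at 0 in all 12. In RNA from whole cultures, fewer cells and less RNA per cell cannot be told apart. The share of reads that fell outside annotated genes was 17.8 to 19.8% in the control libraries and 18.2 to 27.2% in those with SF3a1 siRNA, highest in replicate 1 of SF3a1 siRNA without LPS, and its part in the results below was not tested.

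SF3a1 siRNA raised Mdm2 and left Trp53 mRNA near its control level. Mdm2, the p53 ubiquitin ligase, lies on the reverse strand at chr10:117688875-117710758 (mm10). Without LPS it stood at 78.7, 106 and 95.9 CPM in the control libraries and at 614, 810 and 827 CPM after SF3a1 siRNA. With LPS it stood at 207, 215 and 210 CPM in the control libraries and at 712, 901 and 964 CPM after SF3a1 siRNA. Every library with SF3a1 siRNA was above every control library in both conditions, and the lowest of the 6 was replicate 1 without LPS. Mdm2 was 8.01-fold higher without LPS (log2 fold change 3.0, standard error 0.178, edgeR adjusted p = 4.10e-06) and 4.09-fold higher with LPS (2.03, standard error 0.172, edgeR adjusted p = 1.26e-05). Across all genes tested, 33.8% were called without LPS and 38.8% with LPS, so a call at the gene level was common. Leaving out each of the 12 libraries gave Mdm2 a log2 fold change of 2.93 to 3.18 without LPS and of 1.94 to 2.15 with LPS.

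Trp53, the gene for p53, lies on the forward strand at chr11:69580359-69591873 (mm10). Its level was 287, 256 and 244 CPM with control siRNA and no LPS, and 285, 257 and 270 CPM with SF3a1 siRNA and no LPS. These groups overlapped, and the log2 fold change was 0.04 (standard error 0.117, edgeR adjusted p = 0.837). With LPS it was 217, 229 and 211 CPM after control siRNA and 247, 269 and 267 CPM after SF3a1 siRNA. There the groups did not overlap, but the log2 fold change of 0.25 did not pass the test (standard error 0.117, edgeR adjusted p = 0.123). It passed in the fit blocked on replicate number (0.26, edgeR adjusted p = 0.0679), in DESeq2 (0.27, adjusted p = 0.0860) and without replicate 1 of control siRNA without LPS (0.29, edgeR adjusted p = 0.0762).

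Mdm4, the relative of MDM2, lies on the reverse strand at chr1:132989845-133025356 (mm10). Without LPS it stood at 20.1, 22.8 and 20.1 CPM in the control libraries and at 24.1, 25.1 and 24.0 CPM after SF3a1 siRNA. With LPS it stood at 19.8, 23.0 and 24.3 CPM in the control libraries and at 24.6, 13 and 24.4 CPM after SF3a1 siRNA. The groups did not overlap without LPS and overlapped with LPS, where replicate 2 of SF3a1 siRNA was far below the other libraries. Neither change passed the test (log2 fold change 0.22, standard error 0.214, edgeR adjusted p = 0.512 without LPS, and -0.11, standard error 0.214, edgeR adjusted p = 0.762 with LPS). Without that library the value with LPS was 0.14 (edgeR adjusted p = 0.542), so its sign rests on 1 library.

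Ppm1d, the p53 phosphatase gene, lies on the forward strand at chr11:85311244-85347066 (mm10). Without LPS it stood at 31.7, 38.1 and 40.9 CPM in the control libraries and at 34.2, 39.4 and 37.9 CPM after SF3a1 siRNA. With LPS it stood at 19.6, 21.1 and 20.6 CPM in the control libraries and at 36.2, 35.7 and 32.5 CPM after SF3a1 siRNA. The groups overlapped without LPS and stood well apart with LPS, where the control libraries were the low ones. Ppm1d did not pass the test without LPS (log2 fold change 0.0099, standard error 0.137, edgeR adjusted p = 0.971) and was 1.70-fold higher with LPS (0.77, standard error 0.139, edgeR adjusted p = 0.00130).

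**Figure D1:**
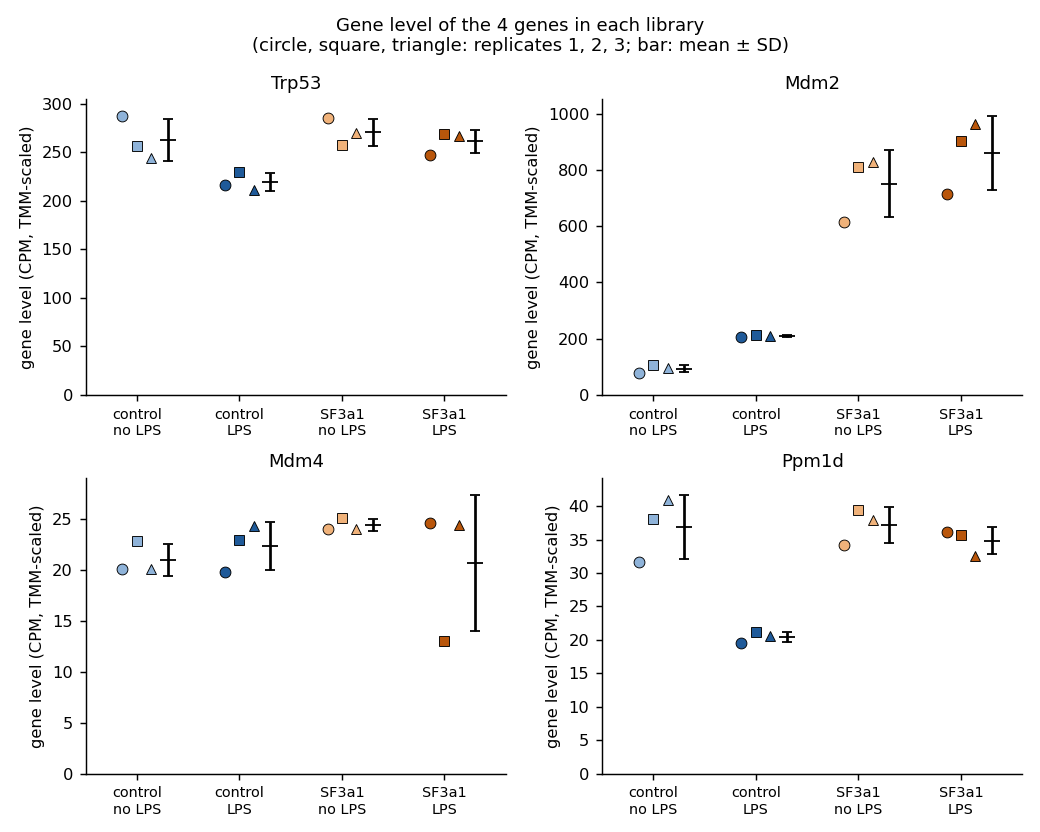
Level of Trp53, Mdm2, Mdm4 and Ppm1d in each of the 12 libraries (CPM, linear axes from 0, each panel with its own scale). Symbols stand for replicates 1, 2 and 3, and the bar beside them gives the mean ± SD of the 3 libraries. Mdm2 is higher in all 6 libraries with SF3a1 siRNA, and Ppm1d is lowest in the 3 control libraries with LPS, between 19.6 and 21.1 CPM.

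LPS by itself also moved the 2 p53-dependent regulators, in opposite directions. With control siRNA, 32.1% of the genes tested were called between LPS and no LPS. Mdm2 was 2.24-fold higher with LPS (log2 fold change 1.17, standard error 0.168, edgeR adjusted p = 2.22e-04), and Ppm1d fell to 0.554 of its level (-0.85, standard error 0.139, edgeR adjusted p = 5.74e-04). For both genes the libraries with and without LPS did not overlap. Trp53 had a log2 fold change of -0.26 with groups that did not overlap, which missed the threshold (edgeR adjusted p = 0.129) and passed it with the replicate block (-0.26, edgeR adjusted p = 0.0717). Mdm4 had a log2 fold change of 0.09 (edgeR adjusted p = 0.818) with overlapping groups. The comparisons of LPS with control siRNA and of SF3a1 siRNA share control libraries, so their values are not independent of each other.

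With SF3a1 siRNA, none of the 4 genes was called between LPS and no LPS, where 10.7% of all genes were. The log2 fold changes were 0.20 for Mdm2 (edgeR adjusted p = 0.626), -0.09 for Ppm1d (edgeR adjusted p = 0.831), -0.05 for Trp53 (edgeR adjusted p = 0.908) and -0.23 for Mdm4 (edgeR adjusted p = 0.664), and the groups overlapped for each of them. For Mdm2 the library with LPS was the higher one in all 3 pairs of the same replicate number, and the fit with the replicate block did not call it either. Unadjusted, 0 of the 4 had a p under 0.05 in the edgeR test, and DESeq2 called 0 of them. The value for Mdm4 became 0.0093 without replicate 2 of SF3a1 siRNA with LPS.

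The difference between the SF3a1 effects with and without LPS was tested as an interaction, which 3.47% of the genes tested passed. Mdm2 passed it with a log2 difference of -0.97 (standard error 0.235, edgeR adjusted p = 0.0546), the smaller rise being the one with LPS, and Ppm1d with 0.76 (standard error 0.195, edgeR adjusted p = 0.0738). Both also passed with the replicate block, a fit that called 1744 genes for the interaction in place of 520. The calls are close to the threshold. Mdm2 missed it without replicate 3 of control siRNA without LPS (-1.04), replicates 2 (-0.96) or 3 (-0.97) of control siRNA with LPS, or replicates 2 (-0.92) or 3 (-0.90) of SF3a1 siRNA without LPS, with edgeR adjusted p from 0.101 to 0.157. Ppm1d missed it without replicate 2 (0.69) or 3 (0.63) of control siRNA without LPS, 2 (0.78) or 3 (0.76) of control siRNA with LPS, 1 (0.70), 2 (0.80) or 3 (0.77) of SF3a1 siRNA without LPS, or 1 (0.73) or 2 (0.74) of SF3a1 siRNA with LPS, with edgeR adjusted p from 0.111 to 0.241. Ppm1d also missed it with upper quartile scaling (0.70, edgeR adjusted p = 0.123) and with no filter on low counts (0.78, edgeR adjusted p = 0.207). Trp53 (0.21, edgeR adjusted p = 0.720) and Mdm4 (-0.32, edgeR adjusted p = 0.794) did not pass.

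Between genes, levels can be compared only per length, so CPM was divided by the kilobases of annotated exon (4.045 for Trp53, 5.083 for Mdm2, 3.501 for Mdm4 and 3.173 for Ppm1d). On that scale the order with control siRNA and no LPS was Trp53 at 64.9 ± 5.45, Mdm2 at 18.4 ± 2.75, Ppm1d at 11.6 ± 1.497 and Mdm4 at 6.0 ± 0.452 CPM per kilobase (SD, n = 3). With SF3a1 siRNA and no LPS, Mdm2 came first at 148 ± 23.3 and Trp53 second at 66.9 ± 3.45 CPM per kilobase (SD, n = 3), ahead of Ppm1d at 11.7 ± 0.850 and Mdm4 at 6.97 ± 0.171. With SF3a1 siRNA and LPS the order was the same, with Mdm2 at 169 ± 25.8, Trp53 at 64.6 ± 2.98, Ppm1d at 10.97 ± 0.635 and Mdm4 at 5.91 ± 1.91 CPM per kilobase (SD, n = 3). With control siRNA and LPS, Ppm1d at 6.45 ± 0.252 and Mdm4 at 6.39 ± 0.672 CPM per kilobase (SD, n = 3) differed by less than their spread, below Trp53 at 54.2 ± 2.33 and Mdm2 at 41.4 ± 0.802. In the other groups neighbours in the order were further apart than the sum of their SDs. The lengths join the exons of all annotated transcripts, among them introns kept in some, 2177 bases for Trp53 and 1674 for Mdm2. A main coding transcript has 1772 bases for Trp53, 3099 for Mdm2, 3490 for Mdm4 and 2899 for Ppm1d. The values of Trp53 and Mdm2 are thus low beside those of Mdm4 and Ppm1d, and levels per transcript length were not computed.

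Exon usage asks whether part of a gene changes against the rest of the same gene. The authors divided each gene into bins at all annotated exon boundaries, and the bins are numbered here by ascending chromosome coordinates, so that bin 1 is at the 3′ end of Mdm2 and Mdm4 and at the 5′ end of Trp53 and Ppm1d. Of the 75 bins, 68 passed the filter on low counts and were tested with edgeR's diffSpliceDGE: 21 of 22 for Trp53, 28 of 30 for Mdm2, 12 of 15 for Mdm4 and 7 of 8 for Ppm1d. On simulated counts this test made more false calls than its nominal rate, so its adjusted p for a single bin may be too small. Without LPS, SF3a1 siRNA changed the usage of 3 Mdm2 bins and 1 Mdm4 bin, all lower, and of 0 bins of Trp53 and Ppm1d, where 0.626% of 153624 bins were called in all and 0.128% were called lower. With LPS it changed 2 Mdm2 bins and 1 Mdm4 bin, all lower, against 0.492% of all bins called and 0.111% called lower. LPS changed 0 of the 68 bins with control siRNA (0.0801% of all bins) and 0 with SF3a1 siRNA (0.0254%), and 0 passed the interaction (0.0%). For Trp53, 1 bin without LPS and 2 with LPS had an unadjusted p under 0.05 in the comparison of siRNAs, and for Ppm1d 0 and 0. For LPS with control siRNA that was so for 2 bins each of Trp53 and Mdm2, for LPS with SF3a1 siRNA for 3 of Mdm2, and for the interaction for 2 of Mdm2 and 1 of Mdm4. Over all bins the share at that p was 3.39% and 3.99% for the siRNAs without and with LPS, 1.97% and 1.29% for LPS with control and SF3a1 siRNA, and 1.35% for the interaction. limma's diffSplice and the DEXSeq model fitted with DESeq2 called the same Mdm4 bin in both conditions, and in Mdm2 each of them called bins 20 and 21 in both. They differed on bin 19, which limma called without LPS only, on Mdm2 bin 18, which the DEXSeq model called without LPS, and on Trp53 bin 20, described below.

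**Figure D2:**
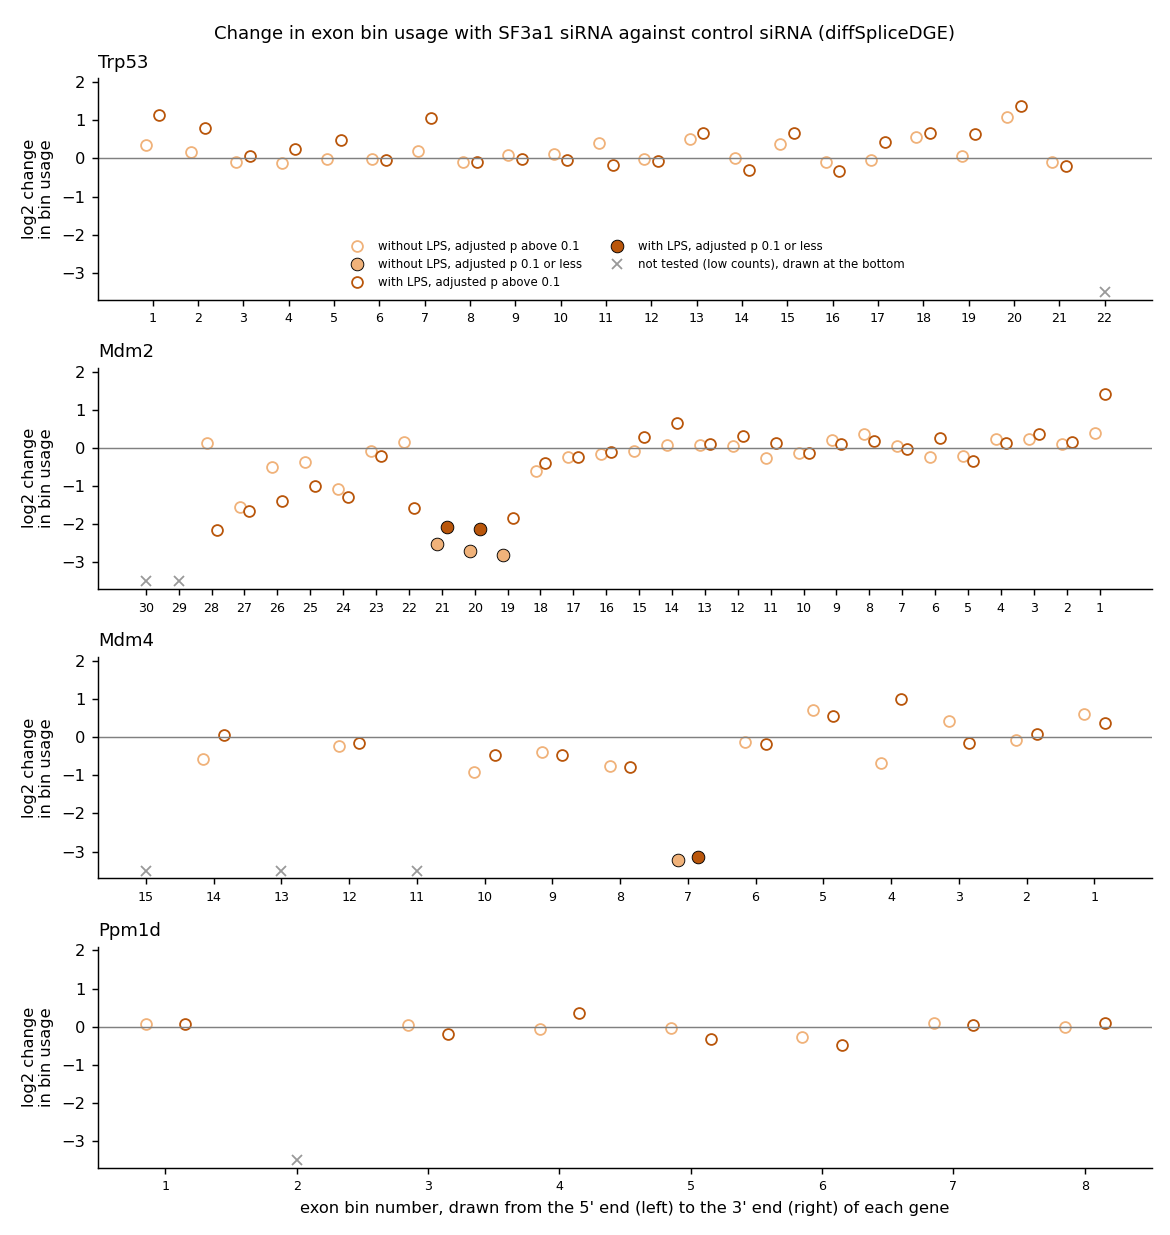
Change in usage of every tested exon bin between SF3a1 and control siRNA (log2, same scale in all 4 panels), without LPS in light and with LPS in dark colour, drawn from the 5′ end of each gene on the left. Filled points passed an adjusted p of 0.1 in diffSpliceDGE, and crosses at the bottom mark bins with too few counts to test. The filled points are bins 19, 20 and 21 of Mdm2 and bin 7 of Mdm4, between -3.23 and -2.08.

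The Mdm4 bin that fell is exon 7, an internal exon of 68 bases on the reverse strand at chr1:133004654-133004721. It is shown here because its loss changes the reading frame, since 68 bases leave a remainder of 2 when divided into codons. In the first line capitals mark exon 7 between the last 18 bases of exon 6 and the first 18 of exon 8. In the second line exons 6 and 8 are joined, and capitals mark the stop codon, at chr1:133003850-133003852 inside exon 8, that the annotation gives to a transcript without exon 7. The annotation classes that transcript as a target of nonsense-mediated decay, the pathway that destroys mRNA with an early stop codon.
Mdm4 exon 7 in its neighbours: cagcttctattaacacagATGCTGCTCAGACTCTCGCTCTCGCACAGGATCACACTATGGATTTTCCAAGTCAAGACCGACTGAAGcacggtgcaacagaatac
Mdm4 exon 6 joined to exon 8: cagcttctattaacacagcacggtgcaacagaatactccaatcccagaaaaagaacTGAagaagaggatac

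Counts on Mdm4 exon 7 were 100, 34 and 24 in the control libraries without LPS and 2, 5 and 3 after SF3a1 siRNA. With LPS they were 40 and 23 in the 2 control libraries and 2, 0 and 8 after SF3a1 siRNA. Every library with SF3a1 siRNA held fewer counts than every control library, although Mdm4 as a whole had 246 to 974 bin counts in them against 346 to 1213 in the control libraries. In percent of all Mdm4 bin counts, exon 7 took 5.99 ± 2.07% (SD, n = 3) and 0.678 ± 0.371% (SD, n = 3) without LPS, and 5.45 ± 1.69% (SD, n = 2) and 0.517 ± 0.726% (SD, n = 3) with LPS. Its usage fell by 3.23 on the log2 scale without LPS (diffSpliceDGE in edgeR, adjusted p = 0.00103), which placed it at rank 234 by p among the 153624 bins. With LPS it fell by 3.14 (diffSpliceDGE in edgeR, adjusted p = 0.00768), rank 246. The call with LPS was lost without replicate 2 of control siRNA with LPS (-2.81, edgeR adjusted p = 0.131) and without replicate 1 of SF3a1 siRNA with LPS (-2.49, edgeR adjusted p = 0.154). It was also lost with replicates 2 and 3 only, an alternative chosen after seeing the data (-2.76, edgeR adjusted p = 0.151).

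The inclusion ratio compares an exon with its neighbours only: it is the counts per base of the exon over the mean counts per base of the nearest bins on both sides that lie in no annotated intron. Reads were counted in every bin they touch, so short exons can have ratios above 1. For Mdm4 exon 7, measured against exons 6 and 8, the ratio was 1.11, 1.32 and 0.893 in the control libraries without LPS and 0.0658, 0.346 and 0.151 after SF3a1 siRNA. With LPS it was 0.663 and 1.11 in the control libraries and 0.0369, 0 and 0.447 after SF3a1 siRNA. The groups did not overlap in either condition, and the mean with SF3a1 siRNA was 16.95% of control without LPS (0.188 ± 0.144 against 1.11 ± 0.212, SD, n = 3) and 18.2% of control with LPS (0.161 ± 0.248, SD, n = 3, against 0.887 ± 0.316, SD, n = 2). The exact two-sided permutation p was 0.1 in both, the smallest these numbers of libraries allow, and 0.229 after Benjamini-Hochberg adjustment over the 16 tests made on 4 exons. With LPS the size of the difference rests on few counts, and the log2 of the ratio of means went from -2.46 to -5.59 without replicate 3 of SF3a1 siRNA.

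Mdm4 has other internal exons that an annotated transcript skips. Exon 9, of 161 bases at chr1:133001283-133001443, had an inclusion ratio of 0.366 ± 0.0442 with control siRNA and 0.767 ± 0.288 with SF3a1 siRNA without LPS (SD, n = 3), higher in every library (exact permutation p = 0.1). With LPS its ratio was 0.503 ± 0.0872 (SD, n = 2) and 0.634 ± 0.224 (SD, n = 3), with overlap (exact permutation p = 0.6), and its usage was called in neither condition (log2 0.71 and 0.56, diffSpliceDGE in edgeR, adjusted p = 1 for both). Exon 2, of 78 bases, held 3 counts over all 11 libraries and was not tested. The largest bin, 1509 bases at the 3′ end (chr1:132989845-132991353), took 24.2 ± 2.98% of Mdm4 bin counts with control siRNA and 36.7 ± 4.98% with SF3a1 siRNA without LPS (SD, n = 3), and 27.7 ± 2.92% (SD, n = 2) and 35.8 ± 2.62% (SD, n = 3) with LPS, but its usage did not pass the test (diffSpliceDGE in edgeR, adjusted p = 1). Across all genes, 0.549% of the 9287 tested cassette exon bins without LPS and 0.441% with LPS were called lower with SF3a1 siRNA, and Mdm4 exon 7 was 1 of them in each case.

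In Mdm2 the bins that fell make up exon 3, of 85 bases on the reverse strand at chr10:117709700-117709784 (bins 20 and 21), and a 46 base extension of it (bin 19). Exon 3 is shown because it holds the start codon of the transcript with the longest coding sequence, in capitals in the first line. A coding transcript with the extension is annotated to start further on, in exon 4, with base 117705161 as the last of its start codon. The second line is intron 2, which ends at exon 3 (chr10:117709785-117709945), with capitals for positions -17 to -5 from its 3′ end, the pyrimidine-rich stretch in front of the splice site, where 10 of 13 bases are T and 2 are C.
Mdm2 exon 3: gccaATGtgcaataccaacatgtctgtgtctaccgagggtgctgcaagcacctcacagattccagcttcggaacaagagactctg
Mdm2 intron 2: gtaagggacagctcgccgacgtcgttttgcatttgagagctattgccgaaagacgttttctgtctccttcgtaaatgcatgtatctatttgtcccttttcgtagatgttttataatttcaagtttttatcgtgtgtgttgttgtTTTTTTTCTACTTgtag

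Counts on Mdm2 exon 3 were 313, 135 and 162 in the control libraries without LPS and 270, 149 and 100 after SF3a1 siRNA. Over the same libraries the bin counts of the whole gene went from 4913, 3209 and 3182 to 22930, 19075 and 15011. These counts are not scaled for depth. Over all bins the control libraries held 59095475, 27655575 and 29524781 counts, and those with SF3a1 siRNA 39326161, 22981645 and 17269833. Unscaled exon 3 counts thus overlapped between the siRNAs, while those of the whole gene were several times higher. A change in the level of exon 3 by itself was not tested. The inclusion ratio against exons 2 and 4 was 1.86, 1.62 and 2.03 in the control libraries without LPS and 0.481, 0.399 and 0.307 after SF3a1 siRNA. With LPS it was 2.03 and 2.05 in the control libraries and 0.823, 0.511 and 0.499 after SF3a1 siRNA. The ratio with SF3a1 siRNA was 21.6% of control without LPS (0.396 ± 0.0873 against 1.84 ± 0.209, SD, n = 3) and 29.95% of control with LPS (0.611 ± 0.184, SD, n = 3, against 2.04 ± 0.00882, SD, n = 2), with no overlap and an exact permutation p = 0.1 in both. Among the libraries with SF3a1 siRNA, all 3 with LPS were above all 3 without (exact permutation p = 0.1, adjusted 0.229 over the same 16 tests).

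In the test across all bins, usage of bin 20 fell by 2.70 on the log2 scale without LPS (diffSpliceDGE in edgeR, adjusted p = 3.43e-08, rank 26 of 153624) and by 2.13 with LPS (adjusted p = 1.14e-04). Bin 21 fell by 2.53 (diffSpliceDGE in edgeR, adjusted p = 6.88e-08, rank 28) and by 2.08 (adjusted p = 9.59e-05). Bin 19 fell by 2.81 without LPS (diffSpliceDGE in edgeR, adjusted p = 0.00194), where its share of Mdm2 bin counts was 0.330 ± 0.0895% with control and 0.0477 ± 0.0116% with SF3a1 siRNA (SD, n = 3). With LPS bin 19 had a log2 change of -1.85 (diffSpliceDGE in edgeR, adjusted p = 0.166), which passed without replicate 1 of SF3a1 siRNA with LPS (-2.38, edgeR adjusted p = 0.0646). Without that library 6 Mdm2 bins were called with LPS in place of 2. Bins 20 and 21 were called in both conditions with each of the 11 libraries left out in turn.

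Outside exon 3 and its extension, no Mdm2 bin passed the test of the model chosen here. At an unadjusted p under 0.05 there were 5 Mdm2 bins without LPS and 9 with LPS, those called included, of 28 tested, beside 3.39% and 3.99% of all bins, and the log2 change of each was below 0. With LPS the 6 besides bins 19 to 21 were bins 22 and 24 to 28, none of which passed, with log2 usage changes from -2.16 (bin 28, edgeR adjusted p = 0.360) to -0.99 (bin 25, edgeR adjusted p = 0.987). Bin 28, of 26 bases in exon 1, held 17 and 8 counts in the control libraries with LPS and 29, 4 and 5 after SF3a1 siRNA. Exon 8, of 97 bases at chr10:117695953-117696049 and also skipped in an annotated transcript, had an inclusion ratio of 1.18 ± 0.107 and 0.953 ± 0.0528 without LPS (SD, n = 3, exact permutation p = 0.1), and of 1.07 ± 0.0165 (SD, n = 2) and 0.958 ± 0.0735 (SD, n = 3) with LPS (exact permutation p = 0.2), given as control and then SF3a1 siRNA. The direction with LPS depends on the denominator, as the log2 ratio was -0.16 against the neighbouring bins, 0.13 against all bins in no intron and 0.20 in percent of the gene's bin counts. The largest bin, bin 2, took 24.1 ± 1.91% with control and 26.0 ± 0.255% with SF3a1 siRNA without LPS (SD, n = 3). Bin 27, in exon 1 at the upstream start of the gene, took 0.482 ± 0.172% and 0.173 ± 0.1% without LPS (SD, n = 3). Its log2 usage change of -1.56 missed the threshold (diffSpliceDGE in edgeR, adjusted p = 0.161) and passed it with the replicate block (edgeR adjusted p = 0.0246). The 4 bins of Mdm2 that are introns kept in an annotated transcript, 1674 bases in all, took 1.69 ± 0.506% and 1.59 ± 0.155% of its bin counts without LPS (SD, n = 3), and 1.63 ± 0.0687% (SD, n = 2) and 1.45 ± 0.188% (SD, n = 3) with LPS. Among all genes, 4.28% of 3529 tested bins of this class were called higher with SF3a1 siRNA without LPS and 2.83% with LPS, and 0 of those in Mdm2 were.

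Trp53 has 1 bin whose share of the gene differed between siRNAs in every library, without passing the test of the model chosen here. Bin 20 is 96 bases at chr11:69591254-69591349, directly in front of the last exon, and is transcribed as exon when exon 11 starts early. It is also the end of the intron before the usual start, so RNA with that intron unspliced is counted there too. Reads that join exons were not used, and which of these forms the counts come from was not tested. The early start is shown because it gives p53 a different C-terminus: in a pair of annotated coding transcripts the reading frame then ends at the stop codon in capitals in the first line, 55 bases from the early start (chr11:69591254-69591308). The second line is the sequence from the usual start of exon 11 to its own stop codon, 82 bases (chr11:69591350-69591431). The third line gives the last 20 bases in front of the usual start (chr11:69591330-69591349), with capitals for positions -17 to -5, of which 8 are T and 4 are C.
Trp53 exon 11 early start to stop: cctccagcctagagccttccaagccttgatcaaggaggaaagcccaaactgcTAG
Trp53 exon 11 usual start to stop: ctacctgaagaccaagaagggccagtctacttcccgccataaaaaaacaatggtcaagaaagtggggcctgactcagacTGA
Trp53 end of the intron before the usual start: cctTTTCTGTCTTCCTatag

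Bin 20 took 0.826, 0.645 and 0.729% of Trp53 bin counts in the control libraries without LPS and 1.44, 1.86 and 1.41% after SF3a1 siRNA. With LPS it took 0.756 and 0.801% in the control libraries and 2.05, 1.80 and 2.27% after SF3a1 siRNA. The groups did not overlap in either condition, and the counts behind these shares were 33 to 151 in the control libraries and 78 to 243 with SF3a1 siRNA. Its log2 usage change was 1.08 without LPS (diffSpliceDGE in edgeR, adjusted p = 0.245) and 1.39 with LPS (adjusted p = 0.136). With the replicate block it was called in both conditions (edgeR adjusted p = 0.0037 and 0.0016), as it was by the DEXSeq model in DESeq2 (adjusted p = 0.0015 and 0.0002), while limma's diffSplice called 0 bins of Trp53. The largest bin of Trp53, bin 21 in exon 11, took 22.9 ± 1.85% with control and 21.6 ± 4.24% with SF3a1 siRNA without LPS (SD, n = 3). The 5 intron bins of Trp53, 2177 bases in all, took 3.07 ± 0.905% and 4.13 ± 1.80% without LPS (SD, n = 3), and 2.66 ± 0.669% (SD, n = 2) and 3.83 ± 0.919% (SD, n = 3) with LPS, given as control and then SF3a1 siRNA. The groups overlapped, while in each pair with the same replicate number the share was higher with SF3a1 siRNA, from 2.17 to 2.32%, 3.07 to 4.15% and 3.98 to 5.93% without LPS and from 2.19 to 2.80% and 3.13 to 4.12% with LPS.

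**Figure D3:**
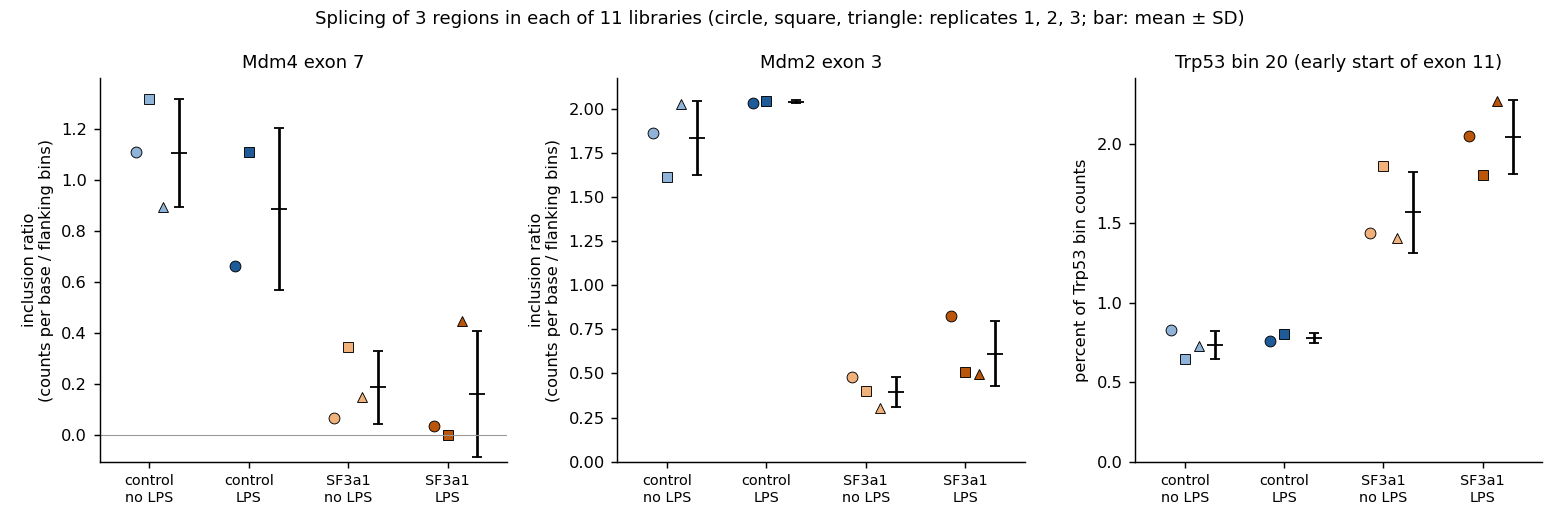
Inclusion ratio of Mdm4 exon 7 and Mdm2 exon 3 (counts per base over those of the neighbouring exons) and share of Trp53 bin counts on bin 20 (percent), in each of the 11 libraries with exon bin counts. Symbols stand for replicates 1, 2 and 3 and bars for mean ± SD, with the SD of Mdm4 exon 7 under SF3a1 siRNA and LPS reaching below 0. In each panel the libraries with SF3a1 siRNA are all on one side of the control libraries, below them for both exons and above them for Trp53 bin 20.

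For Ppm1d, 0 of its 7 tested bins was called in any comparison, and 0 had an unadjusted p under 0.05 in diffSpliceDGE. Their log2 usage changes with SF3a1 siRNA ran from -0.27 to 0.10 without LPS and from -0.47 to 0.37 with LPS. The largest, bin 8, took 38.6 ± 6.53% with control and 38.3 ± 5.71% with SF3a1 siRNA without LPS (SD, n = 3). The limma and DEXSeq models called 0 bins of Ppm1d as well.

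Genes that p53 is known to activate rose with SF3a1 siRNA in their majority. Of 30 such genes listed, Mdm2 and Ppm1d not counted, 28 were tested. Without LPS 18 rose and 1 fell, where 13.7% of all genes tested rose and 20.1% fell, and their median log2 fold change was 1.37 against -0.02 for all genes. With LPS 20 rose and 5 fell, where 18.4% of all genes rose and 20.4% fell, with a median of 1.15 against -0.04. Cdkn1a, for the cell cycle inhibitor p21, went from 227 ± 19.3 to 1329 ± 93.3 CPM without LPS (SD, n = 3, log2 2.55, edgeR adjusted p = 4.03e-06) and from 705 ± 90.3 to 1913 ± 122 CPM with LPS (1.44, edgeR adjusted p = 2.69e-05). Bbc3, for the killer protein PUMA, went from 13.4 ± 2.31 to 57.7 ± 8.53 CPM and from 12.8 ± 0.128 to 45.1 ± 5.12 CPM (SD, n = 3, edgeR adjusted p = 1.48e-05 and 2.55e-05). Also among the genes with the smallest adjusted p were Zmat3, an RNA-binding protein gene (log2 2.61 without and 2.80 with LPS), Phlda3, an inhibitor of AKT (4.43 and 5.62), and Tnfrsf10b, a death receptor (2.21 and 1.70).

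Ephx1, an epoxide hydrolase, rose by 2.23 and 2.81 on the log2 scale. Ccng1, for cyclin G1, rose by 1.27 and 1.31 and Aen, an apoptotic nuclease, by 1.47 and 0.96. The gene that fell without LPS was Ddb2, a damage recognition factor (-1.26, edgeR adjusted p = 0.0181). With LPS the 5 that fell were Fas, a death receptor (-1.57), Rrm2b, a ribonucleotide reductase subunit (-0.64), Btg2, a growth inhibitor (-0.67), Dram1, a lysosomal protein linked to autophagy (-0.51), and Apaf1, the apoptosome scaffold (-0.74, edgeR adjusted p = 0.0628). Fas had risen without LPS, by 1.95, from 1.29 ± 0.73 to 5.17 ± 1.0 CPM, and stood at 161 ± 51.3 CPM with control siRNA and LPS (SD, n = 3). Of the 28 genes, LPS with control siRNA raised 8 and lowered 10, where 13.8% of all genes tested were higher and 18.3% lower, with a median log2 fold change of -0.27 against -0.02 for all genes.

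Among genes for kinases and cofactors that activate p53, calls went in both directions, and 9 of the 17 tested were not called without LPS and 11 with LPS. Of 18 listed, 17 were tested, and 3 rose and 5 fell without LPS (median log2 fold change 0.04), while 2 rose and 4 fell with LPS (median -0.01). Over all genes tested 13.7% rose and 20.1% fell without LPS, and 18.4% and 20.4% with LPS. The genes that rose without LPS were Dyrk2 (1.04, edgeR adjusted p = 0.0334), Hipk2 (0.81, edgeR adjusted p = 0.0874) and Ppp1r13b (0.57, edgeR adjusted p = 0.0940), the first a pair of p53 kinases and the last a p53-binding cofactor. The genes that fell were those of the damage kinases Atm (-0.84), Atr (-1.36), Chek1 (-1.41) and Chek2 (-0.91) and of the cofactor Ttc5 (-0.71). With LPS Dyrk2 (1.0) and the p53 deubiquitinase Usp10 (0.51) rose, and Atm (-1.02), Atr (-1.42), Ttc5 (-0.54) and Pml, of the nuclear bodies (-1.67), fell. The count without LPS was 5 in place of 8 without replicates 2 or 3 of control siRNA without LPS or without replicate 1 of SF3a1 siRNA without LPS, and with LPS it was 10 in place of 6 without replicate 2 of SF3a1 siRNA with LPS. Cdkn2a, whose product ARF blocks MDM2, had 0 counts in all 12 libraries.

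For ribosomal protein genes whose products can bind MDM2 the number called depended on the fit. Of 12 tested, 0 were called by edgeR in either comparison, beside 33.8% of all genes without LPS and 38.8% with LPS, and 0 had an unadjusted p under 0.05, while DESeq2 called 1 without LPS and 0 with LPS. With the replicate block 3 rose without LPS and 2 were called with LPS, where that fit called 46.2% and 50.3% of all genes. The count was 1 without LPS when replicate 1 of SF3a1 siRNA without LPS was left out, and 2 with LPS when replicate 3 of control siRNA with LPS was left out. Their medians were 0.22 and 0.14 against -0.02 and -0.04 for all genes. Rps27l and Rps27 are near copies of each other, and ribosomal protein genes have many processed copies, so their unique counts are uncertain. The relatives of p53, Trp63 and Trp73, had group means of at most 0.0563 CPM and were not tested.

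Among 19 genes that restrain p53 or act on the MDM proteins, 1 rose and 7 fell without LPS (median log2 fold change -0.12), and 4 rose and 8 fell with LPS (median -0.01), beside the same 13.7% and 20.1% of all genes without LPS and 18.4% and 20.4% with LPS. Usp7, the deubiquitinase of MDM2, MDM4 and p53, was 174 ± 14.2 CPM with control and 89.0 ± 13.5 CPM with SF3a1 siRNA without LPS (SD, n = 3, log2 -0.96, edgeR adjusted p = 0.00102). With LPS it was 156 ± 4.72 and 74.1 ± 14.7 CPM (SD, n = 3, log2 -1.07, edgeR adjusted p = 4.54e-04). The mitotic kinase genes Aurka (-1.12 and -0.91) and Plk1 (-1.57 and -1.50), the MDM2-binding Mtbp (-1.31 and -1.05) and the ubiquitin ligase gene Trim24 (-1.08 and -0.78) fell in both conditions. Usp2, another deubiquitinase of MDM2, fell without LPS (-0.97, edgeR adjusted p = 0.0166) and did not pass with LPS (0.32, edgeR adjusted p = 0.419). Daxx, a partner of MDM2, rose without LPS (0.41) and fell with LPS (-1.41), and the ubiquitin ligase gene Cop1 fell with LPS (-0.64). The 4 that rose with LPS were Trim28 (0.53), Kmt5a (0.72), Smyd2 (0.30) and Sirt1 (0.39), all for proteins that modify p53 or help MDM2.

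**Figure D4:**
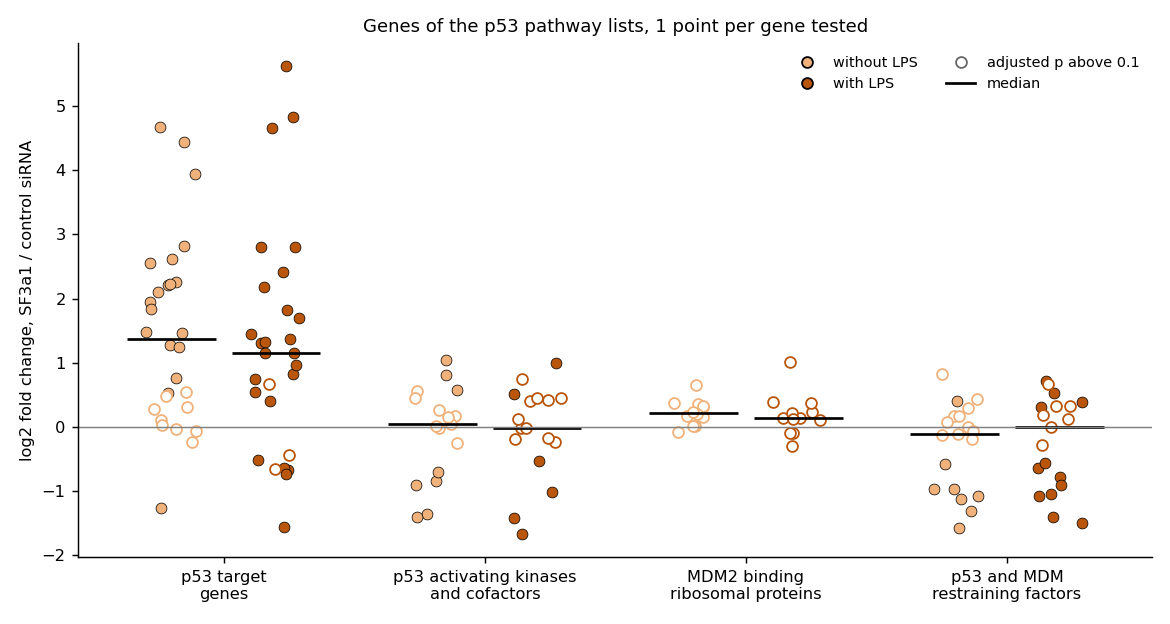
Log2 fold change with SF3a1 siRNA against control siRNA of each tested gene of the p53 lists, without and with LPS, with filled points for genes at an edgeR adjusted p of 0.1 or less and a line at the median of each list. The p53 target genes have medians of 1.37 and 1.15, and the other 3 lists have medians between -0.12 and 0.22.

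The genes whose levels ran most like those of each member over the 12 libraries were found among the 9303 genes averaging 10 CPM or more, by Pearson's r of log2 CPM. For Mdm2 they were Sin3b (r = 0.988), Lins1 (0.979) and Tgm2 (0.978), and for Ppm1d Tmem9 (0.969), Stk24 (0.966) and Gpr183 (0.946). For Trp53 they were Fam98c (0.944), Plekhg5 (0.927) and 5730409E04Rik (0.918), and for Mdm4 Kdm5a (0.924), Cep350 (0.922) and Efr3a (0.913). The 12 libraries share 4 conditions and the same line, and these values are a description.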

How the data were processed

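Polyadenylated RNA of 12 cultures was sequenced on an Ion Proton as single reads, replicate 1 of each group in 2 runs. The authors kept reads of at least 30 bases, mapped them to mm10 with GSNAP and used uniquely mapping reads. The deposited values are counts, without normalization, per Ensembl gene (htseq-count of HTSeq 0.5.4p, as the submitters' processing notes give it) and per exon bin (the counting script of DEXSeq). Whether counting used the strand is not given in the sources used here, so genes that overlap another are uncertain. Reads on no feature stayed out of totals and tests.

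Gene counts of 12 libraries were fitted in R 4.3.3 with edgeR 4.0.16 (TMM, filterByExpr, 1 mean per group, quasi-likelihood test), and bin counts of 11 libraries with edgeR and diffSpliceDGE in genes with at least 2 kept bins, at a false discovery rate of 0.1. DESeq2 1.42.0, limma 3.58.1, RLE and upper quartile scaling, no filter, fits on 2 groups, a replicate block and leaving out each library were the alternatives. The steps were tested on simulated data, in which diffSpliceDGE made more false calls than its nominal rate. Exact permutation tests were computed with numpy 2.4.6, on the log2 inclusion ratio, or on the ratio where a library was at 0, which the design had not foreseen. Bin coordinates were rebuilt from GENCODE vM21, limited to transcripts old enough for the authors' annotation. All bins of the 4 genes matched in number, and sequences come from its transcripts (mm10).

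Libraries with the same replicate number deviated from their group means together (r = 0.143 to 0.600 over 18 pairs, median 0.356), so the numbers pair the libraries. Between a replicate 1 and a replicate 2 or 3 of another group r was -0.523 to -0.169. Between a replicate 2 and a replicate 3 of another group it was 0.0401 to 0.345 (median 0.195), which overlaps the 0.143 to 0.458 (median 0.276) of pairs that are both 2 or both 3, so most of the contrast is between replicate 1 and the others. The fit without the block was the one chosen. Within groups, libraries differed beyond sampling noise (chi-squared per degree of freedom 9.39 to 126 over 12 pairs).

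Named were the 4 genes with Sf3a1, from each list up to 6 called genes per direction and SF3a1 comparison with the smallest adjusted p, with Cdkn1a, Bbc3, Ccng1, Cdkn2a and Usp7 always, the called, cassette and largest bins, and the 3 genes most like each member. The genes, lists and tests were chosen with earlier results of these data known.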

Additional observations from a re-analysis of the deposited data

Results flagged for a closer look

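For 8 of the 40 named genes tested, the 4 genes and 36 list genes most of which were chosen for a small adjusted p in a SF3a1 comparison, the SF3a1 effect differed between the conditions with and without LPS in the interaction term of the edgeR model at an adjusted p of 0.1 or less, which 3.47% of all genes, not chosen in that way, passed, each value being the log2 fold change with LPS minus that without. Mdm2 had -0.97 (edgeR adjusted p = 0.0546), rising 8.01-fold without LPS and 4.09-fold with LPS. Ppm1d had 0.76 (edgeR adjusted p = 0.0738), with control libraries that fell with LPS. Among the p53 target genes, Cdkn1a had -1.11 (edgeR adjusted p = 0.0134), Fas -3.52 (edgeR adjusted p = 0.00632) and Btg2 -1.15 (edgeR adjusted p = 0.0973). Fas rose with SF3a1 siRNA without LPS and fell with it. Among the regulators of p53 and the MDM proteins, Chek1 had 1.22 (edgeR adjusted p = 0.0533), Pml -1.93 (edgeR adjusted p = 0.0131) and Daxx -1.82 (edgeR adjusted p = 4.23e-04). Pml went from 37.7 ± 5.34 to 273 ± 40.2 CPM with LPS after control siRNA and from 45.1 ± 5.26 to 85.7 ± 31.5 CPM after SF3a1 siRNA (SD, n = 3). Daxx went from 66.7 ± 5.57 to 692 ± 34.6 CPM and from 88.4 ± 5.44 to 260 ± 11.7 CPM in the same order (SD, n = 3).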

How the results depend on the processing

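Of 1608 alternative values computed for 99 results, 1466 kept their direction and their side of the threshold, or stayed within the spread or within 1.5 times a count. The rises of Mdm2 in both SF3a1 comparisons and of Ppm1d with LPS, the change of both with LPS after control siRNA, and the fall of Mdm4 bin 7 without LPS and of Mdm2 bins 20 and 21 in both conditions were called under every alternative run on them. The cause of the shifts below was not tested.

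The replicate block, which uses the pairing of the libraries, called Trp53 with LPS (0.26) and with LPS after control siRNA (-0.26). It called 3109 genes for LPS after SF3a1 siRNA and 1744 for the interaction, 3 and 2 ribosomal protein genes, 2113, 1793, 285, 105 and 2 exon bins (SF3a1 siRNA without LPS, with LPS, LPS after control siRNA, LPS after SF3a1 siRNA, interaction) in 1217, 1102, 129, 35 and 1 genes, and 1 Trp53 bin in each SF3a1 comparison. Within pairs, Mdm4 exon 7 inclusion with LPS was -5.59, the value also found without replicate 3 of SF3a1 siRNA alone, which has no partner in the bin counts and was dropped. It also called Mdm2 bin 27 without LPS, and changed no other call of the 4 genes or their bins in the comparisons of siRNAs.

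DESeq2 called Trp53 with LPS (0.27), 921 genes for the interaction and 1 ribosomal protein gene without LPS. Without the filter the log2 change of Ppm1d without LPS was -0.0092, its interaction 0.78, and 930 interaction genes and 1 ribosomal protein gene in each comparison were called. RLE scaling called 1 ribosomal protein gene without LPS, and upper quartile scaling gave the Ppm1d interaction as 0.70. The DEXSeq model called 1490, 1275, 187 and 4 bins in the order above without LPS after SF3a1 siRNA, with 825, 80 and 3 genes for the last 3, and 1 Trp53 bin in each SF3a1 comparison. limma called 21 bins for LPS after SF3a1 siRNA and 1, in 1 gene, for the interaction. The interaction of Mdm4 bin 7 was -0.31 with limma and -0.17 with the DEXSeq model. Against all bins in no intron, or in percent of gene bin counts, Mdm2 exon 8 was 0.13 and 0.20 with LPS, against -0.16 as reported and so in the other direction, and -0.38 and -0.37 for LPS after control siRNA, and Mdm2 exon 3 -2.67 and -2.58 without LPS.

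With replicates 2 and 3 only, an alternative chosen after seeing the data, Ppm1d without LPS was -0.032 and Trp53 for LPS after SF3a1 siRNA 0.026. Called were 1012 interaction genes, 10 kinases and cofactors with LPS, 2 and 1 ribosomal protein genes, 1466 exon bins and 1 Trp53 bin without LPS, 4 Mdm2 and 0 Mdm4 bins with LPS, and 2 interaction bins in 2 genes. Mdm4 bin 7 was 0.44 and 0.11 for LPS after control and SF3a1 siRNA, and -0.33 for the interaction.

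With each library left out in turn, Ppm1d without LPS ran from -0.021 to 0.18, Trp53 with LPS from 0.23 to 0.29, Mdm4 with LPS from -0.25 to 0.14, Mdm4 for LPS after SF3a1 siRNA from -0.38 to 0.0093, and the interactions of Mdm2 from -1.11 to -0.85 and of Ppm1d from 0.63 to 0.81. Genes called ran from 1050 to 2005 for LPS after SF3a1 siRNA and from 273 to 711 for the interaction. Kinases and cofactors ran from 5 to 10 without and 4 to 10 with LPS, and ribosomal protein genes from 0 to 1 and 0 to 2. Exon bins called ran from 527 to 1131 in 382 to 768 genes without LPS, from 101 (without replicate 1 of control siRNA with LPS, which leaves 1 library there) to 888 in 83 to 603 genes with LPS, from 49 to 158 in 23 to 60 genes for LPS after control siRNA, in 7 to 13 genes for LPS after SF3a1 siRNA, and from 0 to 3 in 0 to 3 genes for the interaction. Mdm2 bins with LPS ran from 2 to 6 and Mdm4 bins from 0 to 1. For LPS after control siRNA, Mdm2 bin 19 ran from -0.023 to 0.56 and Mdm4 bin 7 from -0.50 to 0.14. Mdm4 bin 7 ran from -1.75 to 0.57 for LPS after SF3a1 siRNA and from -1.57 to 0.74 for the interaction. Inclusion of Mdm4 exon 7 ran from -5.59 to -1.87 with LPS and from -3.35 to 0.57 for LPS after SF3a1 siRNA. A group left with 1 library was assumed to vary like the others. Mdm4 had 246 to 1213 bin counts per library, which limits what can be detected in its exons.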

Other observations

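Some p53 target genes outside the rule for named genes stood out and were chosen after their values were seen. Sesn1, for a stress-induced sestrin, went from 70.2 ± 17.1 to 14.4 ± 4.57 CPM with LPS after control siRNA, and from 85.0 ± 11.5 to 77.7 ± 17.9 CPM after SF3a1 siRNA (SD, n = 3). Psrc1, for a spindle protein, went from 59.1 ± 5.23 to 17.1 ± 8.35 CPM and from 86.1 ± 4.53 to 77.1 ± 5.15 CPM in the same order (SD, n = 3). For both the difference between the SF3a1 effects passed the edgeR test (Sesn1 2.14, adjusted p = 0.0122, and Psrc1 1.64, adjusted p = 0.0624). Trp53inp1, for a p53-induced nuclear protein, rose with SF3a1 siRNA by 4.67 on the log2 scale without LPS and by 4.66 with LPS, and fell by 2.26 and 2.27 with LPS after control and SF3a1 siRNA. Gadd45a, a growth arrest gene, was low without LPS (0.325 ± 0.144 and 1.13 ± 0.188 CPM) and higher with it (7.61 ± 1.44 and 5.63 ± 1.72 CPM, SD, n = 3, control and then SF3a1 siRNA). It rose with SF3a1 siRNA without LPS (log2 1.84, edgeR adjusted p = 0.00314), and its interaction passed in the other direction from Sesn1 and Psrc1 (-2.28, edgeR adjusted p = 0.0297). Of the 28 p53 target genes tested, the interaction was called above 0 for 2 and below 0 for 4, beside 3.47% of all genes tested in either direction.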
